A study of Mus musculus with 6 samples.

Results

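The 8 genes described here are long noncoding RNAs of 2 kinds: Malat1 and Neat1, which stay in the nucleus, and Gas5, Snhg1, Snhg3, Snhg5, Snhg8 and Snhg12, which host small nucleolar RNAs (snoRNAs). They were chosen by symbol, with the Ensembl identifier of each table row matched to the symbol. Of the 8, 5 had a row among 37315 gene entries. Snhg1, Snhg5 and Snhg8 had none and are not analysed here as genes. Of the 5, 4 carried reads, and Snhg3 had a count of 0 in all 6 libraries.

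The libraries were made from 3T3-L1 cells, a mouse embryonic fibroblast line of pre-adipocytes, after transient transfection. Cells with a METTL3 knockdown (2 libraries) were set against METTL3 control cells (2 libraries), and cells with an FTO knockdown (1 library) against FTO control cells (1 library). METTL3 catalyses the methylation of adenosine in RNA to N6-methyladenosine (m6A), and FTO is a demethylase of RNA. The file headers mark the knockdowns with "si" before the gene name, and what the control cells received is not given in the sources used here. RNA was captured with poly(dT), then depleted of ribosomal RNA. METTL3 libraries were single-read and FTO libraries paired-end, so sequencing mode and experiment cannot be told apart. Whether the replicates came from separate cultures is not stated, so p-values measure only the spread between these libraries, which may be technical.

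Library totals were 41841866 and 44580722 reads in the METTL3 knockdowns, against 43254253 and 41773967 in the METTL3 controls. They were 28348179 reads in the FTO knockdown and 29321128 in the FTO control. Levels are CPM (counts scaled to the library total, with TMM factors within each experiment unless stated). Summed marker levels used TMM factors over all 6 libraries. Mettl3 stood at 7.68 and 6.55 CPM in the METTL3 knockdowns, against 25.1 and 28.9 CPM in their controls (log2 fold change -1.92, edgeR adjusted p = 0.161). Fto stood at 49.2 CPM in the FTO knockdown, against 155 CPM in its control. All 9 fibroblast and pre-adipocyte markers had reads in every library, with a summed level of 9374 to 12906 CPM in the FTO libraries and 24525 to 28849 CPM in the METTL3 libraries. Of 4 epithelial markers, Epcam and Krt18 were at 0 and the other 2 had reads in every library, with a sum of 0.173 to 0.289 CPM. Summed endothelial markers stayed at or below 1.55 CPM.

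Malat1 is among the most abundant nuclear RNAs. It gathers in nuclear speckles, sites rich in splicing factors, and its transcript is known to carry m6A. Neat1, transcribed from the neighbouring locus, is the scaffold of paraspeckles, and its longer isoform is required to build them. snoRNA host genes are transcribed and spliced, their introns release snoRNAs that guide modification of ribosomal and other RNAs, and their spliced exons encode little or no protein. Several hosts, Gas5 among them, begin with a terminal oligopyrimidine tract like that of ribosomal protein mRNAs, and their spliced RNA is degraded by nonsense-mediated decay when it is translated.

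Malat1 (ENSMUSG00000092341) is annotated as a lincRNA on the minus strand of chromosome 19 (GRCm38, 5795690 to 5802672). Neat1 (ENSMUSG00000092274) is a lincRNA on the same strand, at 5824708 to 5845478. The mature Malat1 end has no poly(A) tail and is formed by cleavage beside a tRNA-like RNA, so an encoded run of A is a place where poly(dT) can pair, and its part in these levels was not tested. The longest run of A in each longest annotated transcript (GENCODE release M21) is shown in capitals, with its flanks, read 5′ to 3′ on the transcript strand at chr19:5795963-5796024 for Malat1 and chr19:5832880-5832936 for Neat1.
Malat1-201: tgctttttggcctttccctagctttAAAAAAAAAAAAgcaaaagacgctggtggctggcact
Neat1-201: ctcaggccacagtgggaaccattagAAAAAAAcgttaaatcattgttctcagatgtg
The Malat1 run had 12 A and ended 298 bases before the annotated transcript end. Its distance from the mature, cleaved end was not measured. The Neat1 run held 7 A. The letters GGACT, a core sequence at which m6A is often found, were counted on the transcript strand. Malat1-201 held 9 in 6983 bases, or 1.29 per kb, against a median of 1.00 per kb in 1781 transcripts of similar length, of which 99.9% held at least 1. Neat1-201 held 23 in 20771 bases, and the short isoform Neat1-202 held 6 in 3004 bases. These matches describe letters in the sequence, and methylation was not measured in these libraries.

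Mean Malat1 levels of the METTL3 groups differed by less than the spread between their libraries. Malat1 stood at 572 and 404 CPM in the METTL3 knockdowns, against 561 and 391 CPM in the METTL3 controls. The 2 groups overlapped, and within each the library numbered 1 was the higher. The means were 488 ± 119 CPM in knockdowns and 476 ± 120 CPM in controls (SD, n = 2 each), and the log2 fold change was 0.04 with an SE of 0.24 (edgeR adjusted p = 0.970). Leaving out 1 library at a time gave -0.24 to 0.32, so no direction can be read, nor that the levels were the same. In the FTO experiment Malat1 stood at 2455 CPM (95% Poisson interval 2437 to 2473) in the knockdown, against 2141 CPM (2124 to 2157) in the control. These intervals do not overlap, but they cover counting error only, and with 1 library per group the 1.15-fold difference has no replicate check. They are also too narrow if both ends of a read pair were counted, which is not given in the sources used here.

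Neat1 was set apart by library number rather than by METTL3 knockdown, and this separation was a reason for choosing it. Neat1 stood at 274 and 143 CPM in the METTL3 knockdowns, against 293 and 142 CPM in the METTL3 controls. Both libraries numbered 1 were high and both numbered 2 were low, by 1.92-fold in the knockdowns and 2.06-fold in the controls. The difference between numbers was -0.99 in mean log2 CPM (number 2 minus number 1, TMM factors over all 6 libraries). Of all 13697 genes tested, 1.39% were at least 1.5-fold higher at number 1 in both groups, and 36% were higher by any amount. Since Neat1 was chosen for this split, its place among the 1.39% follows from that choice. Of the other members with reads, Malat1 was also higher at number 1, by 1.42-fold in the knockdowns and 1.43-fold in the controls, short of 1.5-fold. The labels do not say what the numbers stand for. The log2 fold change with METTL3 knockdown was -0.06 (SE 0.44, adjusted p = 0.973). Leaving out 1 library at a time gave -0.61 to 0.55, so neither a direction nor its absence can be read for Neat1. With FTO knockdown it stood at 108 CPM (104 to 112), against 129 CPM (125 to 133) in the FTO control, a ratio of 0.839.

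**Figure D1:**
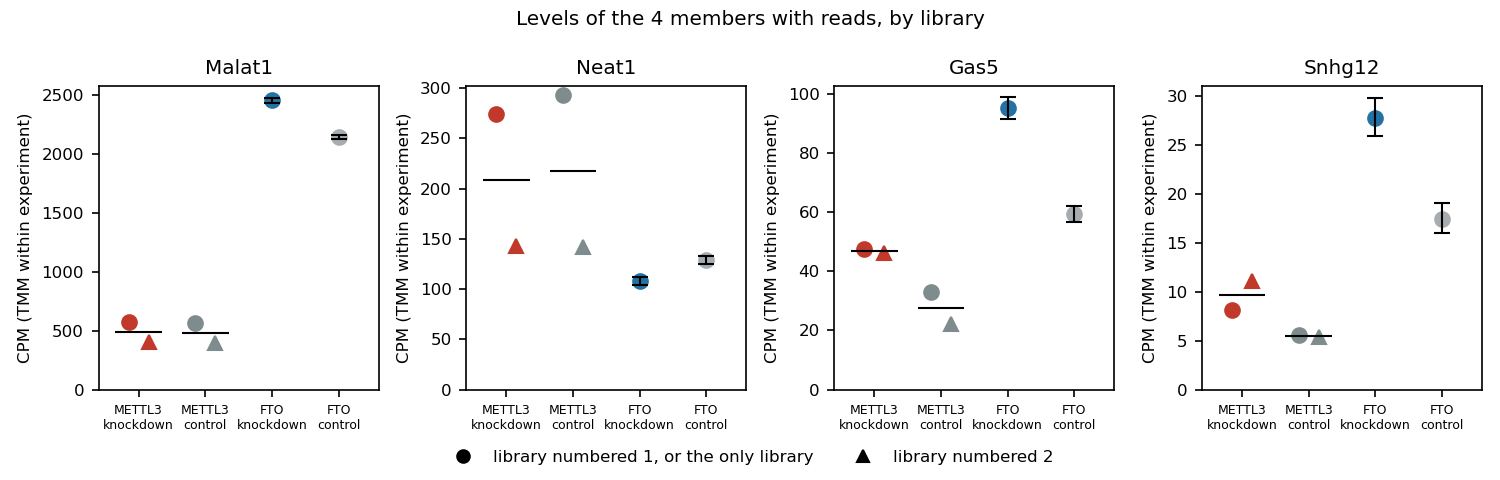
CPM (TMM within each experiment, linear axes from 0) of the 4 members with reads in each library; horizontal lines are means of 2 METTL3 libraries and bars on FTO points are 95% Poisson intervals of counting error. Neat1 is split by library number (274 and 293 CPM against 143 and 142 CPM), while Gas5 and Snhg12 are higher in each knockdown library than in every control library of the same experiment.

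Gas5 (ENSMUSG00000053332, chromosome 1, 161034422 to 161038539, plus strand) and Snhg12 (ENSMUSG00000086290, chromosome 4, 132308623 to 132311024, plus strand) are the hosts with reads. Both host snoRNAs, and both have an annotated start that lies in a pyrimidine tract. The following windows hold 60 bases around a start, from the RefSeq promoter table (GRCm38.p6), with the start at base 31. Capitals mark a C followed by at least 5 further C or T within 10 bases of the start, on the transcript strand. Gas5 is shown at the second of its 2 starts (chr1:161035136-161035195, plus), Snhg12 at chr4:132308648-132308707 (plus) and Snhg8 at chr3:123508307-123508366 (minus). Malat1 is shown as a member with no such run (chr19:5802643-5802702, minus).
Gas5: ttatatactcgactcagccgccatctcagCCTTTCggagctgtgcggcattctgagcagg
Snhg12: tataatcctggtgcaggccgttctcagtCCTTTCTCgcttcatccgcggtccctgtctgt
Snhg8: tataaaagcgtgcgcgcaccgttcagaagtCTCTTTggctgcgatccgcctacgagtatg
Malat1: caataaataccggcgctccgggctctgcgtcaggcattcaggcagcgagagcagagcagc
Of 7 members with an entry, 3 held such a run (3 of 8 entries), the Gas5 one at its second start only. The hosts Snhg1, Snhg3 and Snhg5 held none, nor did Zfas1, Snhg15, Snhg17 and Snhg20, hosts outside the members. Among all 32851 promoter entries 19.2% held one, so the letters are common.

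Gas5 was higher in both METTL3 knockdown libraries than in either control, and missed the test over all genes. It stood at 47.7 and 46.3 CPM in the METTL3 knockdowns, against 32.9 and 22.2 CPM in the METTL3 controls. The knockdowns lay close together and the controls apart, with no overlap. The means were 47.0 ± 0.992 CPM and 27.6 ± 7.56 CPM (SD, n = 2 each), a ratio of 1.70 (log2 fold change 0.77, SE 0.20, adjusted p = 0.317). Gas5 stood at 95.3 CPM (91.7 to 98.9) in the FTO knockdown, against 59.3 CPM (56.6 to 62.2) in the FTO control, 1.61-fold higher.

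Snhg12 gave similar values at a lower level. It stood at 8.12 and 11.1 CPM in the METTL3 knockdowns, against 5.61 and 5.34 CPM in the METTL3 controls. Here the controls lay close together and the knockdowns apart, with no overlap. The means were 9.63 ± 2.14 CPM and 5.48 ± 0.195 CPM (SD, n = 2 each), a ratio of 1.76 (log2 fold change 0.81, SE 0.20, adjusted p = 0.310). Its level was 27.8 CPM (25.9 to 29.8) in the FTO knockdown, against 17.5 CPM (15.97 to 19.05) in the FTO control, 1.59-fold higher. In bulk RNA, fewer cells expressing a gene and less RNA per cell cannot be told apart. Some markers of other cell types moved with the METTL3 groups. The 5 macrophage and leukocyte markers, 3 of them with reads in every library, summed to 35.3 and 31.3 CPM in the METTL3 knockdowns, against 27.8 and 22.5 CPM in the METTL3 controls, and to 21.8 CPM in each FTO library. The 4 mature adipocyte markers, 2 of them with reads in every library, summed to 15.9 and 17.3 CPM in the METTL3 knockdowns, against 22.2 CPM in each METTL3 control, and to 42.6 CPM in the FTO knockdown and 47.2 CPM in the FTO control. The 4 endothelial markers summed to 1.21 and 1.55 CPM in the METTL3 knockdowns, against 0.761 and 0.858 CPM in the METTL3 controls. Their part in the Gas5 and Snhg12 values was not tested.

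By edgeR 0 of the 4 members tested passed an adjusted p of 0.05, and of all 13697 genes 2 did (0.0146%). At an unadjusted p under 0.05 there were 2 of 4 members, Gas5 and Snhg12, both higher, beside 11.5% of all genes (6.35% higher and 5.1% lower). DESeq2 called 1 of 4, Gas5 (log2 fold change 0.77, adjusted p = 0.0444), beside 1.53% of all genes it tested, and Snhg12 had an adjusted p of 0.0749. Knockdown levels lay above both controls for 2 of 4 members, beside 21% of all genes (22% lay below both and 43% did not overlap). A rank-based comparison of 2 against 2 libraries cannot go below an exact two-sided permutation p of 0.333. In the FTO experiment 0 of 4 members passed 2-fold, beside 1.11% of the 11432 genes that reached 50 reads in either library. At a lower threshold, chosen after the values were seen, 2 of 4 were at least 1.5-fold higher, beside 2.41% of all genes (4.29% were at least 1.5-fold lower). For scale, 48 genes differed over 2-fold between the METTL3 knockdown libraries and 78 between the METTL3 controls.

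**Figure D2:**
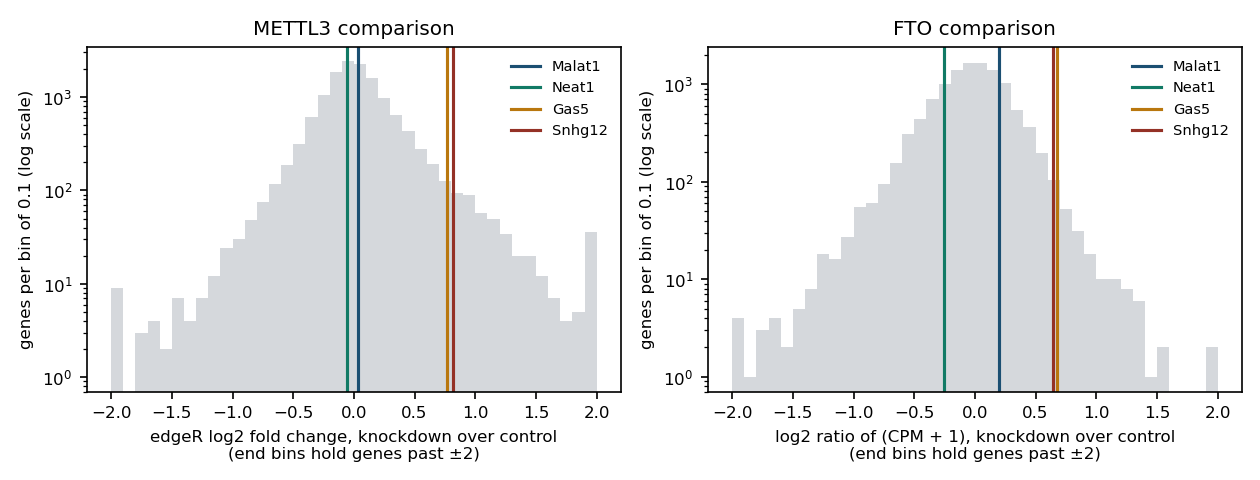
Number of genes (log axis) by log2 change, knockdown over control, for METTL3 (left, 13697 genes) and FTO (right, 11432 genes), with coloured lines at the 4 members. Malat1 (0.04 and 0.20) and Neat1 (-0.06 and -0.25) lie in the body of each distribution, and Gas5 (0.77 and 0.67) and Snhg12 (0.81 and 0.64) on its upper flank.

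Between genes, levels were compared per length on the authors' RPKM (reads scaled to gene length and to a read total). Malat1 was the highest member in every library, at 74.3 and 53.4 RPKM in the METTL3 knockdowns, 74.0 and 52.3 RPKM in the METTL3 controls, 275 RPKM in the FTO knockdown and 232 RPKM in the FTO control. The order of the others differed between libraries. Neat1 stood at 12.0 and 6.35 RPKM in the METTL3 knockdowns, 13.0 and 6.37 RPKM in the METTL3 controls, 4.07 RPKM in the FTO knockdown and 4.70 RPKM in the FTO control, where it was the lowest of the 4. Gas5 ran from 5.51 RPKM in a METTL3 control to 19.8 RPKM in the FTO knockdown, and Snhg12 from 3.06 to 13.4 RPKM in the same 2 libraries. The METTL3 ranges of Neat1 and Gas5 overlap, so their order there is not set beyond the spread. The length behind the RPKM of Neat1 was that of the long isoform (20771 bases), so its value averages both isoforms over the longer one.

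**Figure D3:**
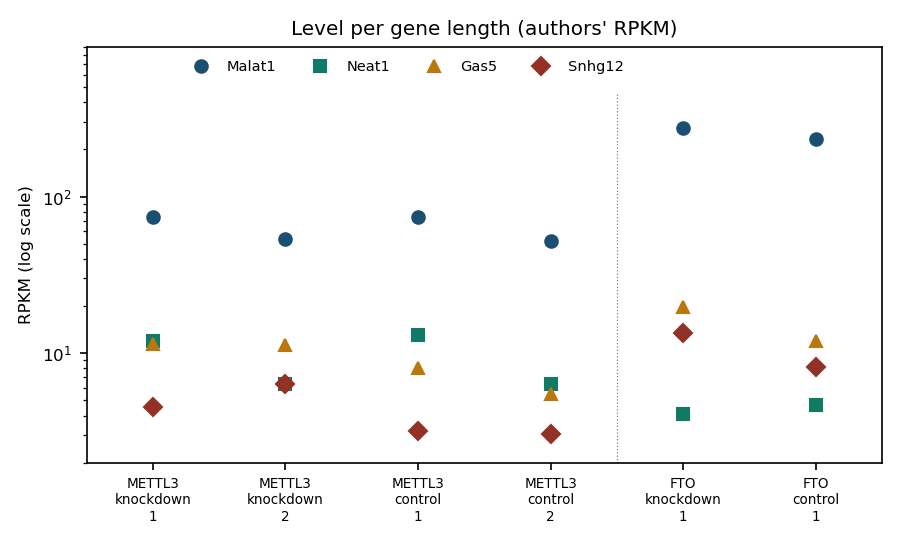
Authors' RPKM (log axis) of the 4 members with reads in each library, with METTL3 libraries left and FTO libraries right of the dotted line. Malat1 is highest throughout (52.3 to 275 RPKM), and Neat1 is lowest in the FTO libraries (4.07 and 4.70 RPKM).

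Malat1 was higher in the FTO control than in both METTL3 controls, and Neat1 was lower by an amount that differed with the control library. On CPM scaled over all 6 libraries, the FTO control was 4.51 times the mean METTL3 control for Malat1 and 0.595 times for Neat1. The Neat1 ratio rests on 1 library, since it was 0.442 against METTL3 control 1 and 0.906 against METTL3 control 2. The FTO control was 2.16 times the mean METTL3 control for Gas5 and 3.19 times for Snhg12. The Malat1 to Neat1 ratio of RPKM was 67.5 in the FTO knockdown and 49.4 in the FTO control, against 5.70 to 8.41 in the METTL3 libraries. These levels were not tested, since sequencing mode and the summed fibroblast markers also differ between the experiments.

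Snhg3 (ENSMUSG00000085241, chromosome 4, 132348014 to 132353686, minus strand) hosts Snora73a and Snora73b beside Rcc1. By counting error alone, its count of 0 allows a level of up to 0.0673 to 0.106 CPM (3 reads in a library). Of its exon bases, 29.8% are shared with other rows on the same strand, where Rcc1, Snora73a and Snora73b overlap it. A further overlap, with Gm17300 on the opposite strand, covers 71.5%. How reads over shared exons were counted is not given in the sources used here, and the bound does not hold if such reads were left out. Of 289 rows wholly inside exons of another row on the same strand, 81.0% were at 0 in all libraries. The share was 83.9% of 161 such rows on the opposite strand, and 39.9% of 29077 rows that share no exon base. The part of shared exons in the 0 for Snhg3 was not tested, and the 0 is given as a listed value. Rcc1 itself, a chromatin-bound exchange factor for Ran, had a log2 fold change of 0.05 with METTL3 knockdown (adjusted p = 0.960), and was 1.57-fold higher in the FTO knockdown. Gm17300 had 15 and 13 reads in the METTL3 knockdowns, against 4 and 3 in the METTL3 controls (log2 fold change 1.96, adjusted p = 0.310).

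For Snhg1, Snhg5 and Snhg8, the snoRNA rows within their annotated spans had reads, and were described after these values were seen. The 8 rows inside Snhg1 (chromosome 19, 8723475 to 8726443, plus strand) summed to 218 and 263 reads in the METTL3 knockdowns, against 150 and 129 in the METTL3 controls. Scaled, this was 5.28 and 5.88 CPM in the knockdowns, against 3.47 and 3.06 CPM in the controls, 1.71-fold higher and with no overlap. They summed to 713 reads in the FTO knockdown, against 388 in the FTO control, 24.8 CPM (23.0 to 26.7) against 13.4 CPM (12.1 to 14.8), 1.85-fold higher. All 8 rows had a higher sum in the METTL3 knockdowns and a higher level in the FTO knockdown, beside 6913 of 13697 genes tested with a positive METTL3 log2 fold change and 5459 of 11432 with a positive FTO log2 ratio. The 8 rows share 1 locus and are not independent. Some of them fell below the read filters behind the shares over all genes. Gm24453, for one, had 2 and 1 reads in the METTL3 knockdowns, against 1 and 0 in the METTL3 controls. Among them Snord22 was at 0.95 on the log2 scale with METTL3 knockdown (SE 0.24, adjusted p = 0.312).

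Snora24, inside Snhg8 (chromosome 3, 123507552 to 123508404, minus strand), had 15 and 19 reads in the METTL3 knockdowns, against 8 and 5 in the METTL3 controls (log2 fold change 1.36, SE 0.44, adjusted p = 0.376). It had 55 reads in the FTO knockdown, against 24 in the FTO control. The Snord50a and Snord50b rows inside Snhg5 (chromosome 9, 88521050 to 88522929, minus strand) summed to 4 and 11 reads in the METTL3 knockdowns, against 7 and 4 in the METTL3 controls, which overlap. They summed to 36 reads in the FTO knockdown, against 10 in the FTO control. Whether such reads came from the snoRNA or from the host transcript cannot be told apart. The 9 snoRNA rows inside Gas5 were all at 0 although Gas5 itself had 936 to 2737 reads. The 2 rows inside Snhg3 and 3 of 4 inside Snhg12 were also at 0. Thus, save 1 row inside Snhg12, the rows with reads lay in members that had no row of their own. The part of read counting in this pattern was not tested. A count of 0 was usual for snoRNA rows: 64.0% of 100 snoRNA rows wholly inside exons of another row on the same strand, and 76.2% of 1331 outside any, were at 0 in all libraries.

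**Figure D4:**
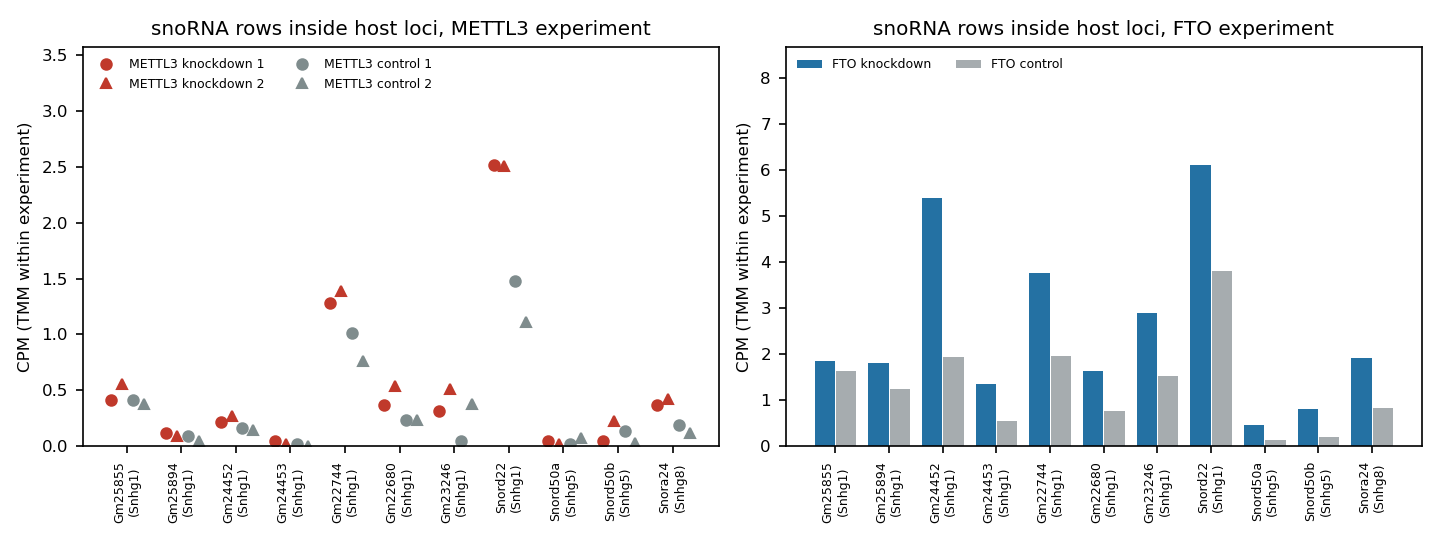
CPM of each snoRNA row inside Snhg1, Snhg5 and Snhg8, with the 4 METTL3 libraries as points (left) and the FTO libraries as bars (right, 1 library each, no error). In the FTO panel every bar pair is higher in the knockdown, and Snord22 is the highest row in both panels.

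The 5 other noncoding snoRNA hosts tested gave values on the same side as Gas5 and Snhg12. Of 16 listed, 8 were in the tables and 5 were tested. Among those not tested, Rmrp, annotated as a ribozyme, had 6 and 5 reads in the METTL3 knockdowns, against 8 and 8 in the METTL3 controls. Rmrp had 9 reads in the FTO knockdown, against 12 in the FTO control. Snhg9 and Snhg11 had at most 2 reads in any METTL3 library. Of the 5 tested, none passed the adjusted test by edgeR. At an unadjusted p under 0.05 there were 4 of 5, all higher, beside 6.35% of all genes at that p and higher. All 5 had METTL3 knockdown levels above both controls, beside 21% of all genes, with a median log2 fold change of 0.64, beside 0.00 over all genes tested. In the FTO experiment all 5 were higher, with a median log2 ratio of 0.53, beside -0.01 over all genes. By ratios of CPM + 1, 2 of them were at least 1.5-fold higher, beside 2.41% of all genes. Epb41l4aos, 1.52-fold higher by CPM alone, fell short of 1.5-fold on that ratio.

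Zfas1, host of the Snord12 group, stood at 53.6 and 51.4 CPM in the METTL3 knockdowns, against 35.8 and 28.5 CPM in the METTL3 controls (log2 fold change 0.71, SE 0.14, adjusted p = 0.251). Its level was 84.3 CPM in the FTO knockdown and 60.5 CPM in the FTO control. Epb41l4aos stood at 11.7 and 10.4 CPM in the METTL3 knockdowns, against 6.65 and 5.72 CPM in the METTL3 controls (log2 fold change 0.84, SE 0.16, adjusted p = 0.251). The groups did not overlap for either host. Snhg17 was at 0.60 on the same scale (SE 0.14, adjusted p = 0.284) and was 1.59-fold higher in the FTO knockdown. Snhg15 was 1.65-fold higher in the FTO knockdown, and Snhg20 had the smallest METTL3 value of the 5, 0.47 (SE 0.22).

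**Figure D5:**
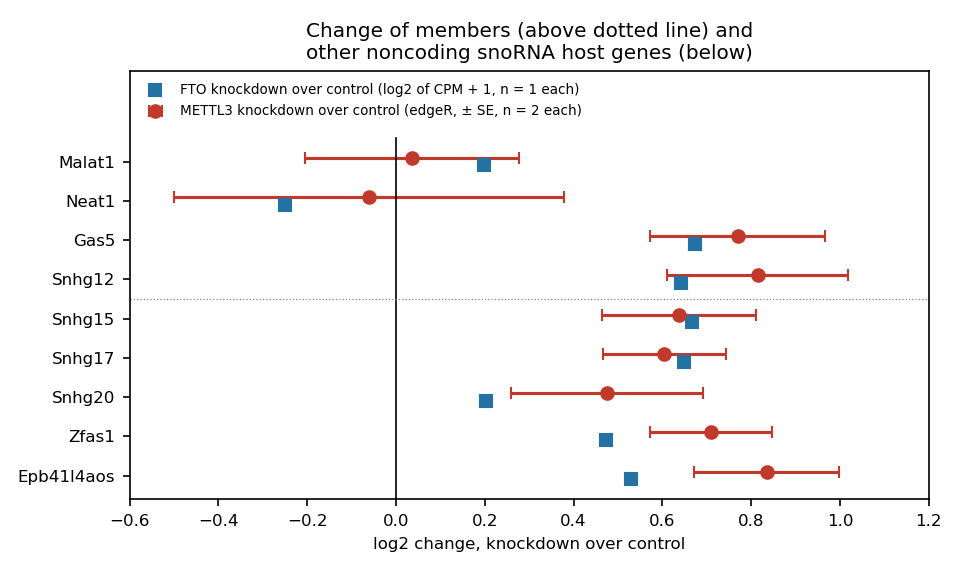
log2 change, knockdown over control, for the 4 members with reads (above the dotted line) and 5 other noncoding snoRNA hosts (below), with METTL3 as circles ± SE (n = 2 each) and FTO as squares (n = 1 each, no error). All hosts shown lie right of 0 in both experiments (METTL3 0.47 to 0.84), while Malat1 and Neat1 lie within 1 SE of 0 for METTL3. No gene shown passed the adjusted edgeR test.

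The other lists had medians nearer to 0. For scale, 0.0146% of all genes passed the adjusted edgeR test and 11.5% had an unadjusted p under 0.05. Counts of 0 or 1 in lists this short cannot show an absence of change. Among other nuclear or chromatin lncRNAs, 13 of 24 were in the tables, 9 were tested, 0 passed and 0 had an unadjusted p under 0.05 by edgeR, with a median log2 fold change of 0.03. Ftx, transcribed in the X-inactivation centre, was at 0.30. H19, an imprinted RNA, was at 1.87 (SE 0.99) with levels under 2 CPM, and 1700020I14Rik was at -0.38. With FTO knockdown Lncpint was at 0.708 times its control. Among 29 protein-coding snoRNA hosts, 0 passed and 1 had an unadjusted p under 0.05, with a median of 0.05. The translation factor Eef1a1 was at 0.30, Taf1d at 0.34 and the ribosomal protein gene Rpsa at 0.19. In the FTO knockdown Rpl23a was at 0.524 times its control.

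Genes of proteins that work with these RNAs also had medians near 0 in METTL3 knockdowns. Their counts stand beside 0.0146% of all genes that passed the adjusted edgeR test and 11.5% at an unadjusted p under 0.05. None of 16 paraspeckle protein genes passed the adjusted test and 1 had an unadjusted p under 0.05, with a median of -0.01 (Taf15 0.50, Ewsr1 0.24, Hnrnph3 -0.24). For 8 nuclear speckle protein genes both counts were 0, with a median of 0.09 (Son 0.26, Srrm2 0.16, Pnn 0.11). For 14 factors of nonsense-mediated decay both counts were 0, with a median of 0.04 (Smg9 0.20, Smg6 0.16). Among 15 snoRNP protein genes 0 passed and 1 had an unadjusted p under 0.05, with a median of 0.08 (Gar1 0.55, Nop56 0.37, Nufip1 0.30). In the FTO knockdown 14 of 15 snoRNP genes were higher, beside 5459 of all 11432 genes, with a median log2 ratio of 0.24 in 1 library per group, and Nop58 was 1.51-fold and Nop56 1.44-fold higher. Srsf3 was 1.44-fold and Srsf1 1.22-fold higher there, with a median log2 ratio of 0.20 over speckle genes. The paraspeckle genes Nudt21 and Tardbp were 1.15-fold higher.

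Protein-coding neighbours did not all stand on the side of the member beside them. Slc3a2, an amino acid transporter subunit whose gene lies 106 bases from Snhg1 on the opposite strand, had a log2 fold change of 0.47 with METTL3 knockdown (SE 0.10, adjusted p = 0.261) and was 1.37-fold higher in the FTO knockdown. Trnau1ap, 739 bases from Snhg12, was at -0.27, and Rab42 on its other side at -0.58 (SE 0.23, adjusted p = 0.434). Zbtb37, which overlaps Gas5 on the opposite strand, was at 0.10. Frmd8, 4224 bases from Neat1, was at -0.20.

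The genes most like each member within the experiments were found by the root mean square difference of log2 CPM, centred within each experiment, over 6 libraries and among 9131 genes with a mean of at least 10 CPM. This measure leaves out the level of a gene and its difference between the experiments. The genes were picked by likeness over these same libraries, so any pattern they share with a member follows from that choice. The nearest to Malat1 was Pros1 (0.0544, against a median gene at 0.263), followed by Atp6ap2 and Gm14391. Nearest to Neat1 were Sord (0.0604, against a median of 0.437), Gxylt2 and Tcn2. Sord stood at 103 and 52.6 CPM in the METTL3 knockdowns, against 96.5 and 51.8 CPM in the METTL3 controls, a split by library number that its choice fixed. Nearest to Gas5 were Gadd45a (0.0742, against a median of 0.446), St6gal1 and Zfas1. Nearest to Snhg12 were Ube2v2 (0.0885, against a median of 0.423), Chac1 and Steap1. Chac1 stood at 81.4 and 90.9 CPM in the METTL3 knockdowns, against 49.2 and 46.2 CPM in the METTL3 controls.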

How the data were processed

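Per the file headers, each deposited table held a read count and an RPKM value per Ensembl gene for 1 library. The counts were whole numbers the authors had not normalised, and the RPKM values were scaled by the authors for length and read total. The submitters' processing notes list TopHat2 2.0.9, bedtools and mm10, and how reads were assigned by strand or to overlapping genes is not given in the sources used here. Symbols came from GENCODE release M21 (35449 of 37315 entries matched, and 3 repeats were left out).

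METTL3 groups were compared on counts with edgeR 4.0.16 (R 4.3.3; TMM, filterByExpr, robust quasi-likelihood test, no replicate block, two-sided, Benjamini-Hochberg over 13697 genes). SE was derived from the test, as the size of the log2 fold change over the root of F. For FTO, with 1 library per group, the log2 ratio used CPM + 1 and genes that reached 50 reads in either library, and no test was made. Folds are ratios of CPM, without the added 1. Exact 95% Poisson intervals cover counting error only and take each counted read as independent. Whether both ends of a pair were counted in the FTO libraries is not given in the sources used here. DESeq2 1.42.0, limma 3.58.1, other scalings, filters and pseudocounts, a replicate block and leaving out each METTL3 library were alternatives. Scripts were tested on simulated data.

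Members and lists were chosen with earlier results of these data known. All members were named. From each list, the genes named were up to 3 with the lowest METTL3 p, up to 2 with the largest FTO change and any called. Neighbours were the nearest protein-coding gene on each side and overlapping genes. Some genes that these rules name are not reported here.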

Additional observations from a re-analysis of the deposited data

How the results depend on the processing

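The count of members called with METTL3 knockdown was 0 with RLE factors, library totals, limma, no filter, a stricter filter, all 6 libraries in 1 fit and each of 4 fits without 1 library (0 to 0, the lone library of a group being assumed to vary like the other group), 1 with DESeq2 and 2 with the replicate number as a block. With the block Gas5 had a log2 fold change of 0.79 (adjusted p = 5.4e-08) and Snhg12 of 0.80 (adjusted p = 7.3e-07). In that edgeR fit Malat1 was at 0.04 (adjusted p = 0.720) and Neat1 at -0.04 (adjusted p = 0.649), while 3706 of 13697 genes (27.1%) were called. Deviations of same-numbered libraries correlated across genes (r = 0.741), but there are only 2 pairs and the labels do not say what a number marks, so this pairing is a hint from the data and not the design.

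Calls over all genes were 2 in the main analysis, 217 with DESeq2, 111 with no filter and 2 to 70 without 1 library, 70 without METTL3 knockdown 1 and 7 without METTL3 knockdown 2. Malat1 reversed to -0.24 without METTL3 knockdown 1 and to -0.21 without METTL3 control 2 (range -0.24 to 0.32). Neat1 reversed to 0.55 without METTL3 control 1 and to 0.33 without METTL3 knockdown 2 (range -0.61 to 0.55). Gas5 ranged from 0.51 to 1.08 and Snhg12 from 0.56 to 1.02. The cause of these differences was not tested.

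In the FTO experiment 0 of 4 members passed 2-fold in every setting, and 2 were at least 1.5-fold higher, a threshold added after seeing the data. Genes past 2-fold numbered 127, against 221 with a pseudocount of 0.1, 46 with 5 and 60 with RPKM. Malat1 moved to 0.24 with library totals and with RPKM, and Neat1 to -0.17 with RPKM. With 1 library per group, no depth can separate these differences from variation between libraries.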
